A study of Mus musculus with 15 samples.

Results

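The genes described here were 8 markers of B cells and of the plasma cells that B cells become: Ms4a1, Cd79a, Cd79b, Pax5 and Blk for B cells, and Jchain, Sdc1 and Xbp1 for plasma cells. They were chosen by name, and every probe whose transcript accession matched 1 of them was taken, which gave 9 of the 41174 probes of the array and 8 of 18217 genes with a RefSeq symbol. Jchain had 2 probes and each other gene had 1.

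B cells carry an antigen receptor made of a membrane immunoglobulin and the signalling pair encoded by Cd79a and Cd79b, and their identity is held by the transcription factor Pax5. On activation some become plasma cells, which lose Pax5, gain Sdc1 on the surface, use Xbp1 to enlarge the secretory pathway and join IgM or IgA with the J chain. In transplantation plasma cells are the source of donor-specific antibody, while the early phase of acute cellular rejection is dominated by T cells.

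Expression was measured on 15 single-colour Agilent arrays, 3 in each of 5 groups, from total RNA of male mice. The cardiac allografts were C57BL/10 (B10, H-2b) hearts placed in the abdomen of CBA (H-2k) recipients and taken on post-operative day 5 (POD5). The hepatic allografts were B10.BR (H-2k) livers placed orthotopically in B10.D2 (H-2d) recipients and taken on POD5 or on POD8. The cardiac and hepatic controls are normal tissue in the labels and syngeneic grafts in the legends, so which of them they were, and their strain, is not settled, and they are called controls. The age of the animals is not given in the sources used here, and the study introduces its question as one about models with no immunosuppression.

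The values below are processed spot intensities, quantile normalized over the 15 arrays, on the log2 scale. A probe was called when limma's adjusted p was under 0.05. The number of arrays limits the precision, and nothing in the labels says more than that each array was a separate sample, so the p-values measure the spread between 3 arrays. Before normalization the 75th percentile of the intensity was 1025 to 1251 on the cardiac control arrays, 395 to 712 on the cardiac allograft arrays, 339 to 478 on the hepatic allograft arrays and 92.1 to 226 on the hepatic control arrays, where 52.5 to 56.9% of probes lay well above background. All 5 hepatocyte markers were well above background on all 9 liver arrays and all 5 cardiomyocyte markers on all 6 heart arrays. The cardiac allografts filled 1 slide with a hepatic POD5 array and the cardiac controls another, so the effect of slide on the cardiac comparison cannot be told apart from that of the graft. Among the livers no slide held both POD5 allografts and controls, and 1 slide held 2 POD8 allografts and 2 controls. No slide held both POD5 and POD8 hepatic allografts, so slide and time cannot be told apart between them. When the arrays were scaled to the 75th percentile instead, the median over all probes moved from 0.02 to 0.47 in the cardiac comparison and from -0.08 to -0.46 in the hepatic POD8 comparison, and the share of called probes that were higher moved from 48.7 to 74.2% and from 71 to 18.4% in those comparisons.

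Ms4a1, Cd79b and Cd79a were the B cell genes with a readable signal, and none of the 3 passed the test in an allograft of either organ. Ms4a1 encodes CD20, a surface protein of mature B cells that plasma cells lose. In the cardiac controls its log2 signal was 6.96, 7.18 and 8.96, and in the cardiac allografts it was 6.31, 7.20 and 6.73. The groups overlapped, and cardiac control 3 lay far above the other 5 hearts, with an intensity before normalization of 1184 against 349 and 324 in the other controls. The difference was -0.95 (SE 0.60, 95% interval -2.45 to 0.55, adjusted p = 0.277), and it was -0.32 without cardiac control 3. In bulk tissue, fewer cells of a type and less RNA per cell cannot be told apart.

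In the liver Ms4a1 went the other way without passing the test. The log2 signal was 6.26, 7.81 and 6.67 in the hepatic controls, 6.83, 8.06 and 8.12 in the POD5 allografts, and 7.69, 7.45 and 7.45 in the POD8 allografts. Hepatic control 2 lay as high as the allografts, so the groups overlapped at both times. The differences from control were 0.76 (SE 0.55, adjusted p = 0.494) at POD5 and 0.62 (SE 0.42, adjusted p = 0.447) at POD8. The 2 times share their controls. The cardiac POD5 difference minus the hepatic one was -1.71 (SE 0.85, 95% interval -3.61 to 0.19, adjusted p = 0.206).

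Cd79b, the Igβ signalling chain of the B cell receptor, had the same outlying heart. Its log2 signal was 8.57, 8.63 and 10.06 in the cardiac controls and 7.56, 8.92 and 7.93 in the cardiac allografts. The third control was again the highest heart and 1 allograft lay above the other 2 controls. The difference was -0.95 (SE 0.55, 95% interval -2.34 to 0.45, adjusted p = 0.248), and -0.46 without cardiac control 3. Hepatic controls read 8.55, 9.41 and 8.23, POD5 allografts 7.80, 8.76 and 8.94, and POD8 allografts 8.79, 8.58 and 8.35. These 3 groups overlapped, with differences from control of -0.23 (SE 0.44) at POD5 and -0.16 (SE 0.34) at POD8.

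Ms4a1 and Cd79b varied together from array to array. Pearson's r was 0.96 over the 6 heart arrays and 0.64 over the 9 liver arrays, a description of arrays that share groups, slides and normalization. Fcmr and Fcer2a, singled out after their values were seen, were also highest among the hearts on cardiac control 3. The Fc receptor for IgM, Fcmr, read 7.08 there against 5.16 and 5.10 on the other cardiac controls and 5.32 to 6.08 in the cardiac allografts, and Fcer2a, the low-affinity IgE receptor CD23, was well above background in the heart on that array only. The log2 of the signal summed over the 5 B cell genes was 9.04, 9.14 and 10.6 in the cardiac controls and 8.19, 9.40 and 8.56 in the cardiac allografts. The summed level of 4 epithelial markers was also lower in the cardiac allografts, 7.66 to 8.66 against 9.55 to 11.5, with cardiac control 3 the highest and cardiac control 1 close to it at 11.4, and their part in the B cell values was not tested.

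Cd79a, the Igα partner chain, was dim everywhere. It was well above background on 13 of 15 arrays, with a log2 signal of 2.89 to 3.88 in the cardiac controls, 3.53 to 4.65 in the cardiac allografts, 4.25 to 5.66 in the hepatic controls and 4.18 to 5.42 in the hepatic allografts of both times. Every allograft group overlapped its controls. The differences were 0.67 (SE 0.40, adjusted p = 0.256) in the heart, -0.39 (SE 0.50, adjusted p = 0.698) in the liver at POD5 and -0.56 (SE 0.43, adjusted p = 0.488) at POD8. In the heart the sign was opposite to that of Cd79b, whose product pairs with that of Cd79a.

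Pax5 and Blk, the transcription factor of B cell identity and a Src family kinase of the B cell receptor, could not be read. Pax5 was well above background on 1 of 15 arrays, cardiac control 2, at a log2 signal of 3.32. Blk was not well above background on any array. Its normalized value was nevertheless higher in all 3 cardiac allografts, at 2.80, 2.85 and 3.12, than in the cardiac controls, at 2.21, 2.19 and 2.28, and the test called it (difference 0.70, SE 0.11, adjusted p = 0.00919). No fold is given for it, since both groups lay at background.

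**Figure D1:**
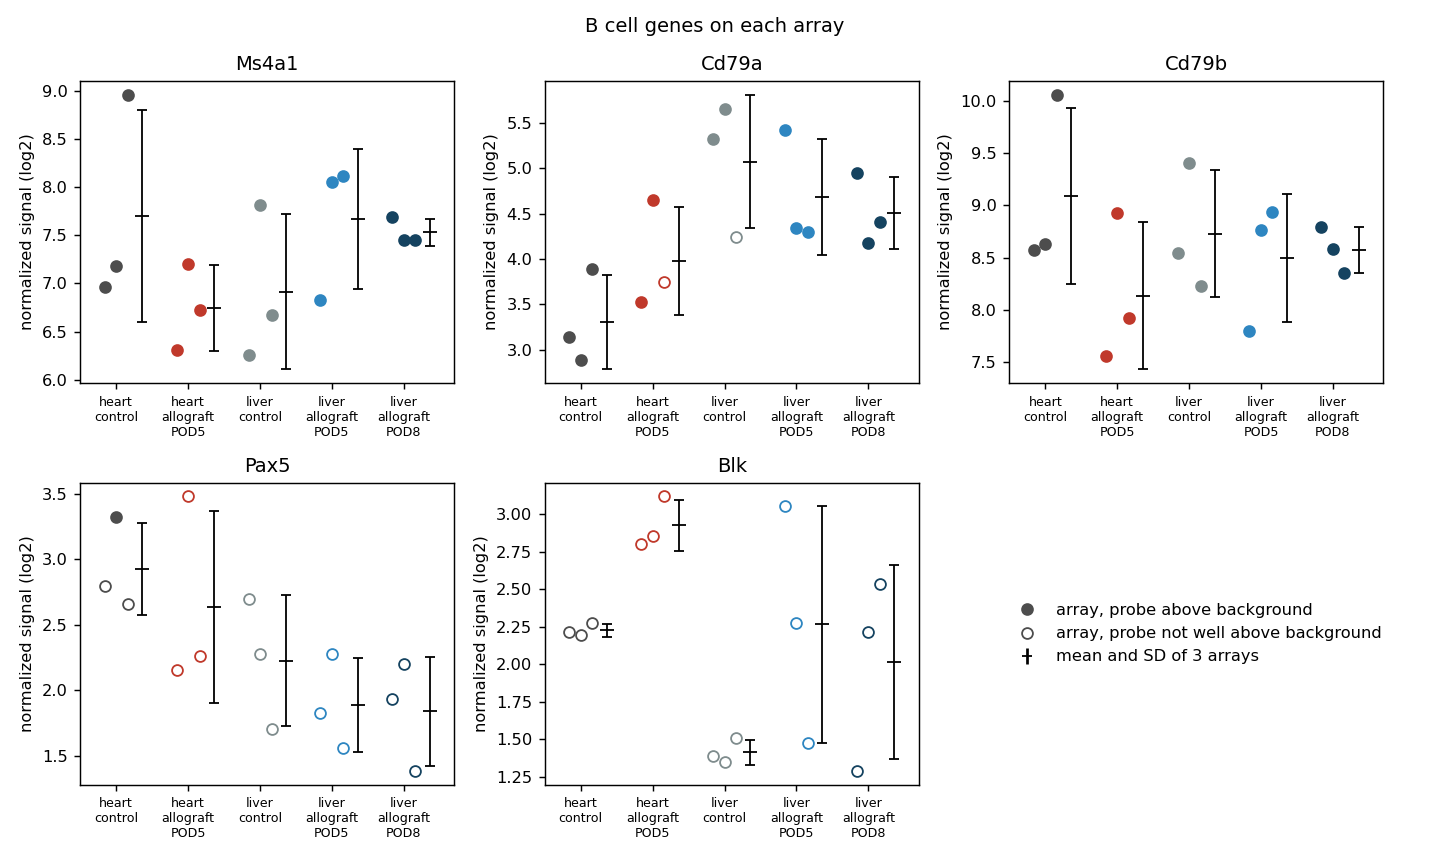
Normalized log2 signal of the 5 B cell genes on each array, by group, with the mean and SD of 3 arrays as black bars and open circles where the probe was not well above background. The third cardiac control stands at 8.96 for Ms4a1 and 10.06 for Cd79b, while Pax5 and Blk lie almost wholly at background.

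Jchain, whose product joins the units of secreted IgM and IgA, was the 1 member well above background whose hepatic allografts and controls did not overlap, at POD8. The groups of that comparison did not overlap for 31.4% of all probes. On its brighter probe the log2 signal was 7.24, 5.97 and 6.33 in the hepatic controls, 5.81, 6.69 and 7.43 in the POD5 allografts and 8.74, 8.46 and 7.91 in the POD8 allografts. All 3 POD8 grafts lay above all 6 other livers, while POD5 grafts and controls overlapped. The POD8 difference from control was 1.86 (SE 0.40, 95% interval 0.85 to 2.87, 3.64-fold), and its adjusted p of 0.0693 missed the threshold. At POD5 the difference was 0.13 (SE 0.53, 95% interval -1.20 to 1.46, adjusted p = 0.919).

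The dimmer Jchain probe passed the test at POD8. It read 4.95, 5.05 and 4.14 in the hepatic controls, the last not well above background, then 4.75, 5.47 and 5.88 at POD5 and 7.48, 7.23 and 6.801 at POD8. The POD8 grafts again lay above every other liver. The POD8 difference was 2.46 (SE 0.32, 95% interval 1.66 to 3.26, 5.49-fold, adjusted p = 0.0216). Both probes target the same transcript accession, so they are 2 readings of the same RNA and not 2 genes.

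Within 1 slide the Jchain difference was as large. On the slide that held 2 POD8 allografts and 2 controls, both allografts lay above both controls on the brighter probe, by 2.001 on the log2 scale. A fit with slide as a block takes its difference from these same arrays, so it is no second check (2.001, SE 0.54, adjusted p = 0.187). The brighter probe passed the test in 4 of the other settings tried on it: with scaling to the 75th percentile (adjusted p = 0.0219), with a normexp background (0.048), with only probes above background tested (0.0305) and without hepatic control 1 (0.0308). Over all settings tried on this probe the adjusted p ran from 0.0219 to 1, the latter after Bonferroni adjustment.

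POD8 against POD5 gave the same order, on slides that the 2 times did not share, so time and slide cannot be told apart. The difference was 1.73 (SE 0.46, 95% interval 0.58 to 2.88, adjusted p = 0.279) on the brighter probe and 1.80 (SE 0.34, 95% interval 0.95 to 2.65, adjusted p = 0.232) on the dimmer one. Neither passed the test, in a comparison where limma called 0% of all 41165 probes and 5299 of them had an unadjusted p under 0.05.

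In the heart Jchain was spread widely among the controls. The brighter probe read 7.14, 8.36 and 5.85 in the cardiac controls and 8.22, 8.52 and 7.99 in the cardiac allografts. Cardiac control 2 lay within the allografts, and cardiac control 3, the array highest for Ms4a1 and Cd79b, was the lowest. The difference was 1.13 (SE 0.65, 95% interval -0.50 to 2.75, adjusted p = 0.24), and it ranged from 0.49 without cardiac control 3 to 1.75 without cardiac control 2. The dimmer probe gave 1.22 (SE 0.59, adjusted p = 0.174).

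Sdc1, syndecan-1, is a heparan sulfate proteoglycan of plasma cells and also of hepatocytes and other epithelia. Its log2 signal was 9.45, 8.75 and 9.21 in the cardiac controls and 8.43, 9.17 and 8.79 in the cardiac allografts. In the hepatic controls it was 12.78, 12.90 and 12.85, in the POD5 allografts 13.31, 12.81 and 13.10, and in the POD8 allografts 12.94, 13.35 and 12.74. Allografts and controls overlapped in both organs, and the organs did not. The allograft differences were -0.34 (SE 0.26, adjusted p = 0.378) in the heart, 0.23 (SE 0.17, adjusted p = 0.493) in the liver at POD5 and 0.17 (SE 0.18, adjusted p = 0.616) at POD8.

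Xbp1 encodes a transcription factor of the unfolded protein response that plasma cells need and that hepatocytes also use. In the heart it read 11.15, 11.11 and 10.87 in controls and 10.98, 11.54 and 11.04 in allografts, a difference of 0.14 (SE 0.19, 95% interval -0.33 to 0.61, adjusted p = 0.6). The hepatic controls were far apart, at 11.12, 12.12 and 12.80, against 11.55, 11.86 and 11.04 at POD5 and 12.09, 11.90 and 12.12 at POD8. The POD8 grafts were close together and all above the POD5 grafts, by 0.55 (SE 0.23, 95% interval -0.02 to 1.12, adjusted p = 0.399), which did not pass the test. Against control the difference was -0.53 (SE 0.48) at POD5 and 0.03 (SE 0.44) at POD8.

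**Figure D2:**
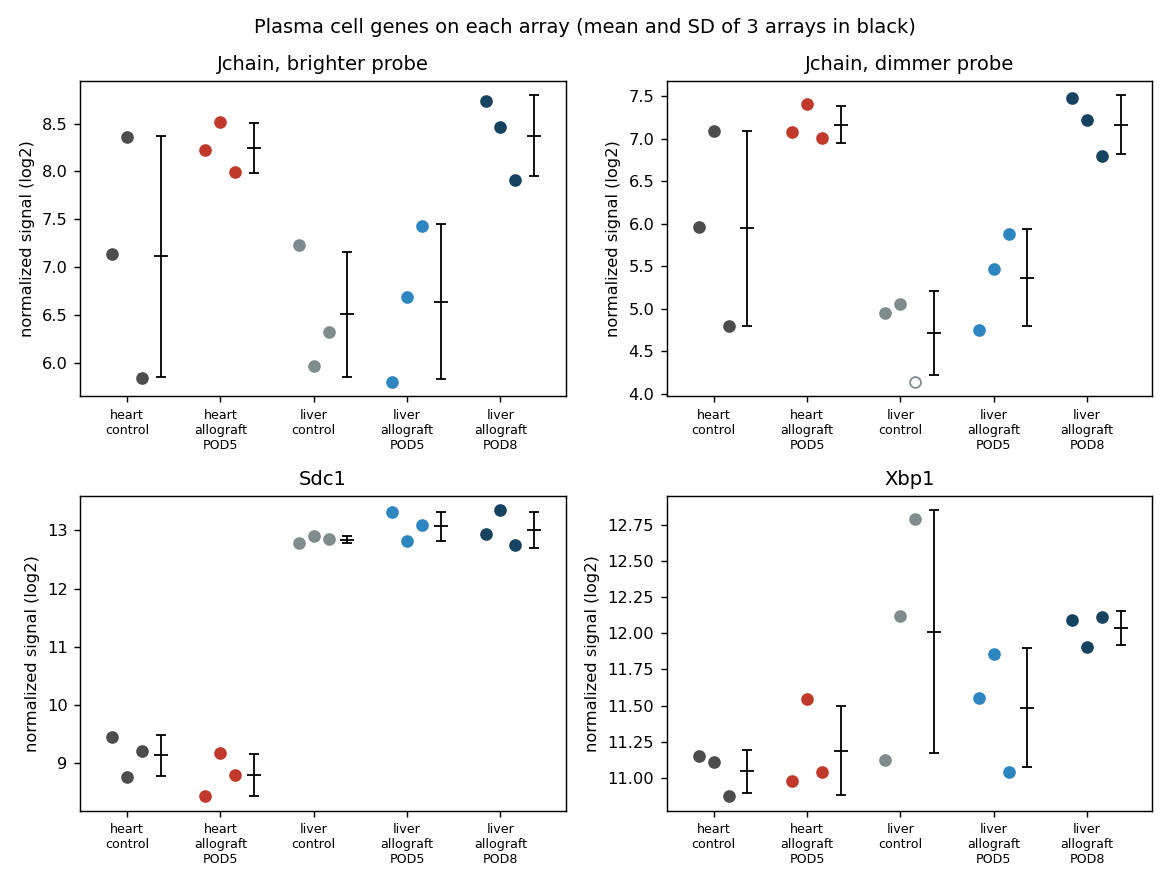
Normalized log2 signal of Jchain on its 2 probes, Sdc1 and Xbp1 on each array, by group, with the mean and SD of 3 arrays as black bars. Jchain at POD8 lies above all other livers on both probes, and Sdc1 separates livers, at 12.74 to 13.35, from hearts, at 8.43 to 9.45.

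Across the comparisons with control, 1 call was made on the 8 genes. In the cardiac allografts 1 was called, Blk at background, where 32% of all probes were called. In the hepatic allografts 0 of 8 were called by limma at POD5, where 3.16% of probes were, and 0 of 8 at POD8, where 4.97% were. None of the 8 had an unadjusted p under 0.05 at POD5, and 1, Jchain, did at POD8. The 8 genes had a median difference of -0.08 for the cardiac allografts, -0.05 for hepatic POD5 and 0.10 for hepatic POD8, beside 0.02, -0.07 and -0.08 over all probes. Groups did not overlap for 1 gene in the heart (54.6% of all probes), 0 in the liver at POD5 (31.2%), 1 at POD8 (31.4%) and 2, Jchain and Xbp1, between POD8 and POD5 (19.7%). The interaction of organ and allografting called 0 of 8 (13.7% of probes), with 12395 of 41006 probes at an unadjusted p under 0.05.

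T cell genes were called in both organs on the same arrays. All 6 T cell markers were higher in the cardiac allografts, with a median difference of 4.35. In the hepatic allografts 4 of 6 were higher at both times, with medians of 5.02 and 4.37. The 6 did not move alike in the liver. Cd4 read 5.54 to 5.66 in hepatic controls, 5.31 to 5.56 at POD5 and 5.15 to 5.24 at POD8. Cd3e had means of 7.25, 7.99 and 7.96 in these groups. Their summed log2 level was 8.55 to 9.16 in the cardiac controls and 13.2 to 13.8 in the allografts, and in the liver it was 8.41 to 8.84 in controls, 12.7 to 13.4 at POD5 and 12.5 to 12.9 at POD8. The summed level of the 5 B cell genes in the liver was 8.74 to 9.91 in controls, 8.61 to 9.63 at POD5 and 9.05 to 9.42 at POD8, with the groups overlapping.

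**Figure D3:**
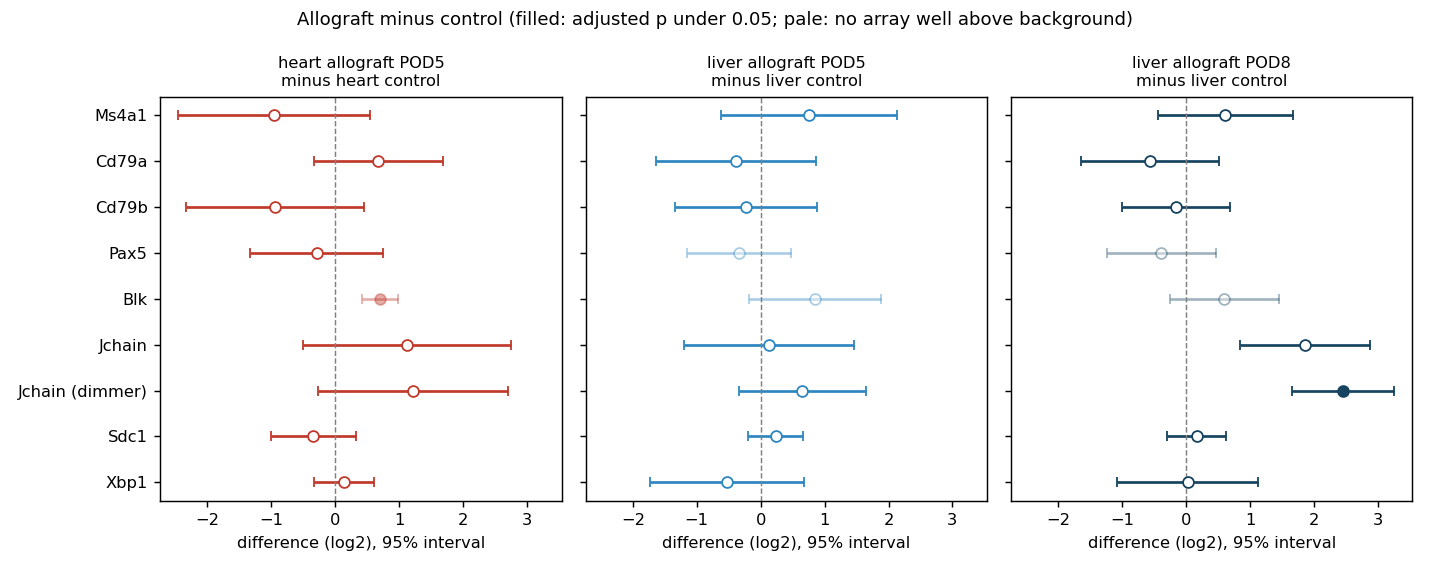
Difference between allograft and control (log2) for each member probe with its 95% interval, in the 3 comparisons with controls, filled where the adjusted p was under 0.05 and pale where no array was well above background. The intervals cross 0 except for Blk in the heart and for both Jchain probes in the liver at POD8.

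By group mean, Ms4a1 was ordered from cardiac controls (7.70 ± 1.096, SD, n = 3) through hepatic POD5 (7.67 ± 0.73), hepatic POD8 (7.53 ± 0.14) and hepatic controls (6.91 ± 0.80) to cardiac allografts (6.75 ± 0.44), and each neighbouring pair overlapped. Cd79b ran from cardiac controls (9.09 ± 0.84) through hepatic controls (8.73 ± 0.61), POD8 (8.57 ± 0.22) and POD5 (8.50 ± 0.61) to cardiac allografts (8.14 ± 0.70), again with every neighbouring pair overlapping. Jchain ran from hepatic POD8 (8.37 ± 0.42) and cardiac allografts (8.24 ± 0.26) down to cardiac controls (7.12 ± 1.26), hepatic POD5 (6.64 ± 0.81) and hepatic controls (6.51 ± 0.66). For Jchain too each group overlapped the next. Xbp1 ran from POD8 (12.04 ± 0.12) and hepatic controls (12.01 ± 0.84) through POD5 (11.49 ± 0.41) to cardiac allografts (11.19 ± 0.31) and cardiac controls (11.04 ± 0.15), each overlapping the next. Sdc1 had 1 gap in its order, between the livers (13.07 ± 0.25 at POD5, 13.01 ± 0.31 at POD8, 12.84 ± 0.06 in controls) and the hearts (9.14 ± 0.35 in controls, 8.79 ± 0.37 in allografts).

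Between the 2 control tissues Sdc1 showed the widest gap. It was 13.1-fold lower in the heart than in the liver (log2 difference -3.71, SE 0.20, adjusted p = 0.000103), and Cd79a was lower too (-1.77, SE 0.46, adjusted p = 0.0251). The Cd79a call was lost in 9 of 17 alternatives, over which the difference ran from -2.18 to -0.48. Before normalization its intensity was not lower in the heart, at 13.3 to 28.7 in cardiac controls and 9.22 to 17.45 in hepatic controls. Of the hepatic controls 2 of 3 were well above background for Cd79a. Blk was called higher but lay at background in both, so 3 of 8 genes were called where 48.2% of all probes were, and the same 3 did not overlap (66.4% of probes). Xbp1 differed by -0.97 (SE 0.44, adjusted p = 0.126) and did not pass the test. Organ, strain and slide differ together between these groups and cannot be told apart.

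The calls on 5 wider gene lists stand beside the same shares of all probes, 32% for the cardiac, 3.16% for the hepatic POD5 and 4.97% for the hepatic POD8 comparison, and no list was tested as a whole. With slide as a fixed block 0% of all probes were called at POD8, so each POD8 call on these lists and on the T cell markers is lost in that fit. With slide as a random block, chosen after seeing the data, the POD8 counts were 6, 4 and 4 for the B cell, plasma cell and survival lists. Of 20 genes of B cell surface, signalling and transcription, 5 were higher and 2 lower in the cardiac allografts, with a list median of 0.64 beside 0.02 over all probes, and between 5 and 8 were called when 1 array was left out. Cd180, a Toll-like receptor homologue of B cells, macrophages and dendritic cells, was higher by 2.03 (SE 0.26, adjusted p = 0.0045), and its partner Ly86 by 0.75 (SE 0.20, adjusted p = 0.0409), a call lost when any 1 array was left out. Cd72, an inhibitory coreceptor of B cells and macrophages, was higher by 1.37 (SE 0.09, adjusted p = 0.00105), and Cd83, a maturation marker of dendritic cells and B cells, by 0.94 (SE 0.18, adjusted p = 0.016). Cd37, a leukocyte tetraspanin, was higher by 0.72 (SE 0.16, adjusted p = 0.0253), a call lost in 8 of 16 alternatives.

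The 2 genes that fell in the heart were Ebf1 and Bank1, which with Cd37 were singled out after their values were seen. Ebf1, an early B cell factor that stromal and fat cells also express, read 7.28, 6.94 and 7.11 in the cardiac controls and 5.74, 5.19 and 5.77 in the allografts (difference -1.55, SE 0.20, adjusted p = 0.00463). Bank1, a B cell scaffold protein, read 5.64, 6.04 and 6.16 against 4.11, 4.69 and 4.44 (difference -1.53, SE 0.21, adjusted p = 0.00575). For both genes the cardiac groups did not overlap, as for 54.6% of all probes. In the liver Bank1 read 6.05 to 7.18 in controls and 6.74 to 7.45 over both allograft groups and did not pass the test.

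In the liver 1 gene of this list, Cd180, was higher at POD5 and 6 were higher at POD8, with list medians of 0.36 and 0.78. Cd180 was not well above background in any hepatic control and was at least 1.995-fold higher at POD5 (adjusted p = 0.00559, lost without POD5 allograft 2) and at least 2.13-fold higher at POD8 (adjusted p = 0.000788). At POD8 Cd83 was higher by 2.83 (SE 0.26, adjusted p = 0.00868), Ly86 by 2.35 (SE 0.38, adjusted p = 0.0365) and Cd72 by 2.28 (SE 0.34, adjusted p = 0.0309). Btk, the kinase below the B cell receptor that myeloid cells also use, was higher by 1.63 (SE 0.29, adjusted p = 0.0437), and Cd22, an inhibitory lectin of B cells, by 1.56 (SE 0.25, adjusted p = 0.0361). Cd22 read 6.15, 5.70 and 5.40 in the controls, 6.002, 6.75 and 5.88 at POD5 and 7.52, 7.41 and 7.002 at POD8, and all POD8 grafts lay above the other livers. The POD8 count was 1, 1 or 2 when POD8 allograft 1, 2 or 3 was left out and 2 without hepatic control 2. The 4 macrophage markers measured had a summed log2 level of 13.9 to 15.3 in hepatic controls, 15.8 to 16.3 at POD5 and 16.3 to 16.6 at POD8. Marco was the brightest of them, with means of 13.72, 15.58 and 15.98, while Clec4f had means of 12.92, 12.53 and 13.17. The means of Adgre1 and Csf1r were higher in both allograft groups than in controls. Limma called 0 of the 4 at POD5 and 1 at POD8 (3.16% and 4.97% of all probes). The part of these markers in the values of the B cell list was not tested.

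Of 15 genes of the plasma cell programme, 4 were higher and 3 lower in the cardiac allografts, where 32% of all probes were called and 48.7% of those were higher. Irf4 and Prdm1, transcription factors of plasma cells and of effector T cells, were higher by 3.26 (SE 0.31, adjusted p = 0.00223) and 1.83 (SE 0.17, adjusted p = 0.00212), and Slamf7, a receptor of plasma cells and cytotoxic lymphocytes, by 2.96 (SE 0.19, adjusted p = 0.000983). Creld2, an endoplasmic reticulum protein, was the fourth and was singled out after its value was seen, at 0.61 (SE 0.12, adjusted p = 0.0183), a call lost in 8 of 16 alternatives. The T cell marker values above moved with these genes, and their part was not tested. In the liver Slamf7 was at least 9.84-fold higher at POD5 (adjusted p = 0.00938) and at least 18.8-fold at POD8 (adjusted p = 0.00383), Irf4 at least 4.07-fold (adjusted p = 0.032) and 2.36-fold (adjusted p = 0.0393), and Prdm1 at least 7.17-fold at POD8 (adjusted p = 0.03). The hepatic controls were not well above background for any of these 3 genes. The POD8 count was 1 without any of the POD8 allografts or without hepatic control 2, and the POD5 count was 0 without POD5 allograft 1 or 2 and 1 without POD5 allograft 3.

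Other genes of the same list that mark plasma cells were not called higher. Tnfrsf17, the survival receptor BCMA, read 5.04, 5.50 and 4.96 in the cardiac controls and was not well above background in any cardiac allograft or any liver. The cardiac controls were at least 3.02-fold higher than the allografts (fitted difference -3.12, adjusted p = 0.00179). Mzb1, a chaperone of B and plasma cells that was singled out after its values were seen, read 6.11, 7.33 and 6.40 in the cardiac controls and 6.42, 7.27 and 6.08 in the allografts. In the liver Mzb1 read 5.54, 5.82 and 5.43 in controls, 5.29, 5.88 and 6.004 at POD5 and 6.56, 6.52 and 6.21 at POD8, with the POD8 grafts above the other livers as for Jchain but without passing the test (difference 0.83, SE 0.17, adjusted p = 0.0573). The other 2 lower genes in the heart were Fndc3b, at -1.23 (SE 0.19, adjusted p = 0.0081), and Fkbp11, a secretory pathway isomerase, at -1.19 (SE 0.34, adjusted p = 0.0481), a call lost in 10 of 16 alternatives. Derl3 and Cd38, also singled out, were not called in an allograft of either organ. Derl3 read 5.85 to 9.79 in hepatic controls, 5.17 to 6.23 at POD5 and 7.52 to 8.71 at POD8. Cd38 read 9.33 to 9.77 in the cardiac controls and 9.90 to 10.29 in the allografts. In the liver Cd38 read 6.48 to 8.21 in controls and 9.04 to 9.56 over both allograft groups. No Cd38 allograft group overlapped its controls (54.6, 31.2 and 31.4% of all probes). The list median was 0.17 in the heart, 0.14 at POD5 and 0.45 at POD8.

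Of 15 targets of Xbp1 and genes of the unfolded protein response, 4 were higher and 3 lower in the cardiac allografts (32% of all probes called). The number called was 3 without any 1 of the cardiac controls and 4 without cardiac allograft 1. Over all 16 alternatives it ran from 0 to 10. Sdf2l1, a chaperone partner, was higher by 1.35 (SE 0.28, adjusted p = 0.0182), and the stress factors Atf4 and Ddit3 by 1.26 (SE 0.14, adjusted p = 0.00294) and 0.83 (SE 0.22, adjusted p = 0.0381). Herpud1, of endoplasmic reticulum degradation, was lower, at -0.92 (SE 0.13, adjusted p = 0.0056), and so was the cochaperone Dnajb9, at -0.80 (SE 0.14, adjusted p = 0.0103). Edem1, of the same degradation pathway, was higher by 0.74 (SE 0.19, adjusted p = 0.0379). Pdia6, a disulfide isomerase singled out after its value was seen, differed by -0.65 (SE 0.17, adjusted p = 0.0414). Edem1 and Pdia6 were each lost in 9 of 16 alternatives and Ddit3 in 7. In the liver, where 3.16% and 4.97% of all probes were called, 0 of 15 were called by limma at either time, 0 had an unadjusted p under 0.05 at POD5 and 2 at POD8, and the list medians were 0.12 and 0.14.

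Among 13 measured genes of B cell survival and homing, 4 were higher and 2 lower in the cardiac allografts (32% of all probes called). Cd40, the receptor for T cell help on B cells, macrophages and dendritic cells, was higher by 3.69 (SE 0.24, adjusted p = 0.00102), Tnfsf13b, the B cell survival factor BAFF, by 2.52 (SE 0.21, adjusted p = 0.00152), and Ccr7, a homing receptor of lymphocytes and dendritic cells, by 2.43 (SE 0.28, adjusted p = 0.00357). Il21, a T cell cytokine that drives plasma cells, was well above background in 1 cardiac allograft and no control. Tnfrsf17 was lower, as given above, and so was the chemokine Cxcl12, at -0.78 (SE 0.19, adjusted p = 0.0311), which was singled out after its value was seen and was lost in 8 of 16 alternatives.

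In the liver none of these 13 genes was called by limma at POD5, where 8 had an unadjusted p under 0.05, and 4 were higher at POD8. The list medians were 0.65 in the heart, 1.72 at POD5 and 1.33 at POD8. Ccr7 was higher by 3.26 (SE 0.55, adjusted p = 0.0406), Cd40 by 2.68 (SE 0.45, adjusted p = 0.0394) and the homing receptor Cxcr4 by 2.30 (SE 0.35, adjusted p = 0.0316), against controls of which 1 or 2 of 3 were well above background. Il21 was well above background in all 6 hepatic allografts and in no control (adjusted p = 0.0147 at POD8). The POD8 count was 0 without any of the POD8 allografts, 1 without hepatic control 3 and 6 without hepatic control 2. Cxcl13, which draws B cells into follicles and was singled out after its values were seen, read 6.30, 8.56 and 8.02 in the hepatic controls and 5.30 to 6.45 over both allograft groups, and did not pass the test. Cxcr5 and Tnfrsf13c, also singled out, went the other way and did not pass either. Cxcr5 read 3.64 to 5.56 in hepatic controls and 6.47 to 7.68 over both allograft groups. Tnfrsf13c read 1.17 to 3.82, well above background in no hepatic control, against 4.51 to 5.70.

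Of 7 germinal centre genes, 2 were called in the cardiac allografts, where 32% of all probes were. Gcsam, a germinal centre signalling protein, was higher by 1.42 (SE 0.11, adjusted p = 0.00147) and Ung, the uracil glycosylase of class switching and general DNA repair, by 1.37 (SE 0.13, adjusted p = 0.00214). Bcl6, a transcription factor of germinal centre B cells and other cells, was not called and was singled out after its values were seen. It read 11.4 to 12.3 in the cardiac allografts and 11.5 to 11.96 in their controls. Among the livers limma called 0 of 7 in the POD5 and in the POD8 comparison (3.16% and 4.97% of all probes), where 2 and 1 had an unadjusted p under 0.05. The list medians were 0.23 in the heart, -0.33 at POD5 and 0.28 at POD8.

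**Figure D4:**
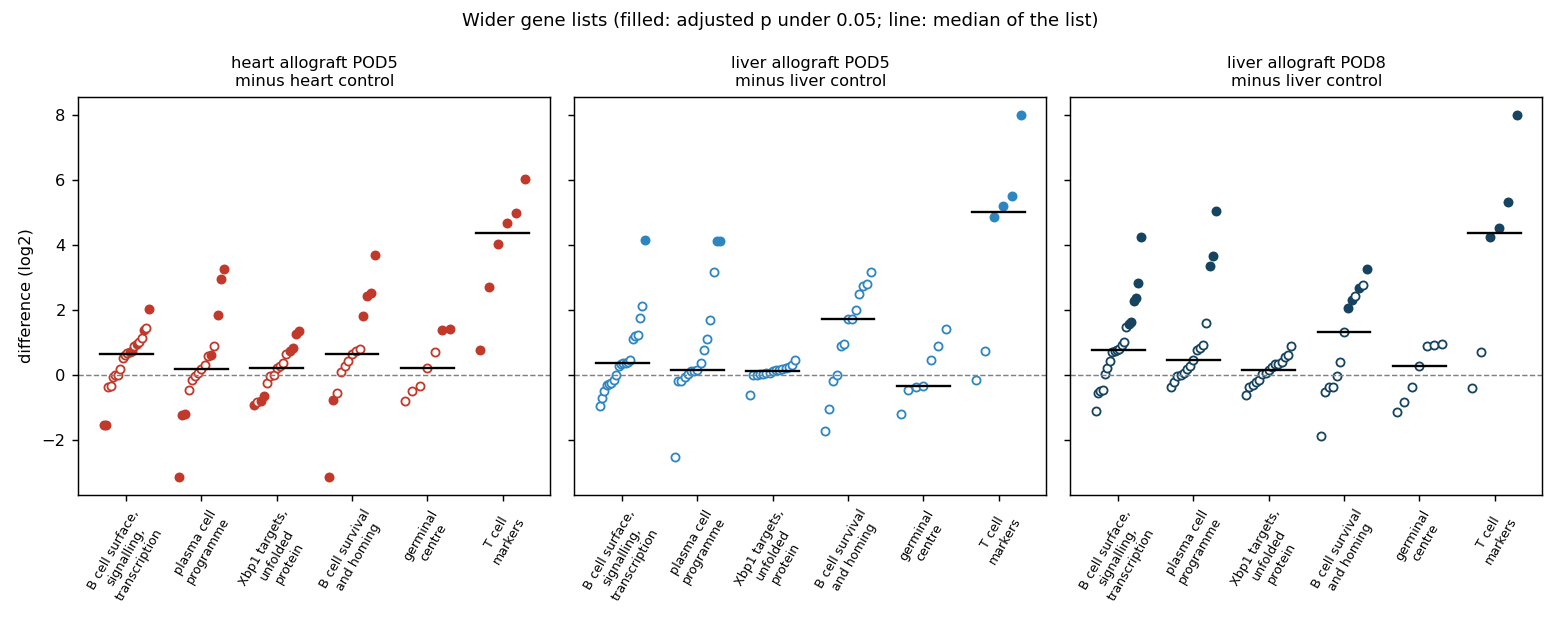
Difference between allograft and control (log2) of each gene of the 5 wider lists and of the 6 T cell markers, in the 3 comparisons, filled where the adjusted p was under 0.05, with the list median as a black line. The T cell medians of 4.35, 5.02 and 4.37 lie above those of the other lists in each comparison.

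The genes most like Ms4a1 across the 15 arrays, among 14916 genes, were Fcmr (Pearson's r 0.79), Tmem241 (0.77), Prss2 (0.77), Prpsap2 (0.75) and Cd55 (0.74). Those most like Jchain were Banp (0.84), Elac1 (0.79), Hivep1 (0.75), Ap3m2 (0.72) and Gzmc (0.71). The arrays share groups, slides and normalization, and these values describe them only.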

How the data were processed

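Total RNA of 15 grafts or control tissues was hybridised to single-colour Agilent arrays. The authors deposited the scanner output of each array as intensity values, read with Feature Extraction 10.5.1.1, of which the processed signal is already background corrected. Their methods describe log transformation and quantile normalization followed by SFC, Limma and t-tests with Bonferroni adjustment.

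Here spots marked as outliers (47 to 113 of 43379 spots per array) and control spots were left out, the processed signal was put on the log2 scale and averaged per probe, and quantile normalization was run over the 15 arrays. A probe was well above background on an array where at least 0.5 of its spots were. Each comparison was fitted on its own groups of 3 arrays with limma 3.58.1 in R 4.3.3, the comparison of organs on 4 groups, with Benjamini-Hochberg adjustment over all probes at 0.05. Where a group was not well above background, a fold is a lower bound ("at least"): the mean of the bright group against, on each dim array, the higher of the dimmest signal well above background and the probe's own. The statistics were tested on simulated data.

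Probes were named by matching their accession to RefSeq accessions of GRCm38.p6 (26690 of 41174 probes). A gene was read from its brightest probe over the 15 arrays. The members and lists were chosen with earlier results of these data known. The text names every member and, per wider list, up to 6 called genes with the largest differences between allograft and control, and says where it goes beyond that. The 12 immunoglobulin genes, Cd68 and Tnfsf13 were not matched and are not analysed here, and some genes of the wider lists are not reported by name.

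Alternatives were quantile normalization within the comparison, scaling to the 75th percentile, normexp on median signals with an offset of 50, a filter on dim probes, 1 fit of 5 groups, replicate number or slide as a block, Bonferroni adjustment, the methods' t-test, SFC, keeping outlier spots, and leaving out each array. Figures were drawn with matplotlib 3.10.9.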

Additional observations from a re-analysis of the deposited data

Results flagged for a closer look

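None of the 8 genes had a cardiac POD5 difference that differed from the hepatic POD5 difference by limma's interaction test. Genes of the wider lists did, where 13.7% of all probes were called, and 9 of these genes are named here. The calls not named include 1 more positive gene of the B cell list. The survival list had 2 more negative genes, of which only Tnfrsf17 is named. Of the 9 named genes, 6 had a more negative difference in the heart. They were Bank1 (-1.88, SE 0.40, adjusted p = 0.016), Ebf1 (-1.95, SE 0.31, adjusted p = 0.00516), Cd180 (-2.11, SE 0.35, adjusted p = 0.00635), Tnfrsf17 (-2.93, SE 0.43, adjusted p = 0.00396), Fndc3b (-1.18, SE 0.33, adjusted p = 0.042) and Dnajb9 (-0.96, SE 0.24, adjusted p = 0.0268). Ebf1 and Tnfrsf17 were not well above background in any liver and Cd180 in no hepatic control, so their hepatic differences are not measured on both sides. The other 3 had a more positive difference in the heart. They were Sdf2l1 (1.33, SE 0.36, adjusted p = 0.0373), Atf4 (1.26, SE 0.21, adjusted p = 0.00622) and Ung (1.75, SE 0.27, adjusted p = 0.00488).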

How the results depend on the processing

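The count of members called in the heart, 1, was 2 with scaling to the 75th percentile (Blk and Cd79a) and 0 with normexp, with the filter on dim probes, in 1 fit of 5 groups, with Bonferroni adjustment and with SFC. In the liver at POD8 the count of 0 became 2 with 75th percentile scaling (Jchain higher, Pax5 lower) and 1 with normexp, with the filter on dim probes and with the dimmer Jchain probe, the last an alternative chosen after seeing the data. Between control organs the count of 3 was 0 with Bonferroni adjustment and with SFC, and 2 with normexp, the filter on dim probes, slide as a random block and the methods' t-test. Leaving out each array gave 1 to 1 in the heart, 0 to 0 at POD5, 0 to 1 at POD8 (1 without hepatic control 1), 0 to 0 between POD8 and POD5, 0 to 0 for the interaction and 2 to 3 between control organs. Same-numbered arrays deviated together no more than others (correlations -0.123 to 0.089). Deviations from means of 3 arrays cannot settle whether the numbers pair the arrays. The replicate block changed the count of members only between control organs, to 2 (Cd79a, adjusted p = 0.0855), and called 0% of all probes in both hepatic comparisons with control. Of the differences that changed sign, those with 75th percentile scaling were Pax5 in the heart (0.05), Sdc1 at POD5 (-0.088), Blk (-0.50), Sdc1 (-0.14) and Xbp1 (-0.22) at POD8, Blk in the interaction (1.12), and Pax5 (-0.094) and Blk (-0.69, called higher otherwise) between control organs. With SFC they were Xbp1 in the heart (-0.074), Cd79b at POD5 (0.21) and POD8 (0.032), Xbp1 at POD8 (-0.027), and Cd79a (0.069), Cd79b (-0.18) and Pax5 (0.11) between POD8 and POD5. With normexp they were Pax5 (0.013) and Sdc1 (0.018) between POD8 and POD5. With slide as a random block, chosen after seeing the data, they were Cd79b between POD8 and POD5 (-0.05) and Blk in the interaction (0.13). Leaving out 1 array ran across 0 for Xbp1 in the heart (-0.035 to 0.25), for Cd79b (-0.48 to 0.12) and Jchain (-0.26 to 0.55) at POD5, and for Cd79b (-0.40 to 0.18), Sdc1 (-0.002 to 0.30) and Xbp1 (-0.42 to 0.42) at POD8. Between POD8 and POD5 it did so for Ms4a1 (-0.56 to 0.086), Cd79a (-0.39 to 0.19), Cd79b (-0.27 to 0.29), Pax5 (-0.23 to 0.18), Blk (-0.65 to 0.14) and Sdc1 (-0.23 to 0.069). It did so for Pax5 (-0.38 to 0.31) and Blk (-0.55 to 0.24) in the interaction, and for Cd79b (-0.13 to 0.70) and Jchain (-0.016 to 1.24) between control organs. The cause of these changes was not tested. Signal near background limits Pax5, Blk and Cd79a.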
